A study of Mus musculus with 4 samples.

Results

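The genes carried by mitochondrial DNA were followed in sorted microglia, the resident macrophages of the brain. They were taken as every gene row whose symbol begins with mt-, which gave 37 of 56832 gene rows: 13 protein-coding genes, 2 ribosomal RNA genes and 22 transfer RNA genes. All 37 lie on the mitochondrial chromosome and have no introns. The 4 libraries, labelled as replicates 1 to 4 of 1 group, came from naive microglia of female C57BL/6 mice without any intervention. The mice were littermates that received no transplant. Cells carrying CD11b, with CD45 at a low or intermediate level, were sorted from their brains. Their age is not given in the sources used here. The series set these cells against graft-derived brain myeloid cells of mice given blood stem cell or bone marrow transplants and a CSF1R inhibitor. Those groups were not analysed here, and with a single group no contrast between conditions could be tested. Whether the replicates were separate animals is not stated, so p-values cover only the spread among these libraries, which may be technical.

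Mitochondrial DNA is a small circle that is copied and transcribed inside the organelle. Both of its strands are transcribed as long precursor RNAs, and the transfer RNAs that lie between most of the other genes mark where the precursors are cleaved. The protein-coding genes encode core subunits of respiratory complexes I, III and IV and of the ATP synthase (complex V), and the ribosomal RNAs build the organelle's own ribosome. The remaining subunits, and the enzymes that copy, transcribe, process and translate mitochondrial RNA, are encoded in the nucleus. Fragments of mitochondrial DNA have also been inserted into the nuclear genome during evolution, and reads from a gene with a near-identical nuclear copy cannot always be placed.

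Sequence bears on how surely each gene could be counted, so it is given before the levels. The transcripts of the 37 genes were compared with 141730 annotated nuclear transcripts (GENCODE M21 sequences). Matches of at least 100 bases at 95% identity or more were found in 11 nuclear pseudogenes for 9 of the 13 protein-coding genes, and in none for the ribosomal RNAs. Of these copies, 7 lie on chromosome 1 and 3 on chromosome 2, and 5 had no differing base over the aligned stretch. mt-Co3, for cytochrome c oxidase subunit III, aligned with the pseudogene Gm28437 over 783 of its 784 bases with 0 differences. Their first 80 bases show why no read from inside this stretch could tell them apart, as there is no capital, which here marks a differing base:
mt-Co3: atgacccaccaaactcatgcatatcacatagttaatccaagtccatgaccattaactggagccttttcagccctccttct
Gm28437: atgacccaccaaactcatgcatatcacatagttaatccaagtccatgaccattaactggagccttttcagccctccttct
mt-Co1, for subunit I of the same enzyme, aligned with Gm13340 over its whole length of 1545 bases with 37 differences. The 80 bases with the most differences, from base 455 to base 534, held 5 of them, shown in capitals:
mt-Co1: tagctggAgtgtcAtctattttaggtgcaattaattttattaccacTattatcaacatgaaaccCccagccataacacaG
Gm13340: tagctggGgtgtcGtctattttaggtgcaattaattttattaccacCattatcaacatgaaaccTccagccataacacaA
mt-Cytb, for cytochrome b of complex III, had no annotated copy, and its first 80 bases are shown as an example of a gene that could be placed by its own sequence:
mt-Cytb: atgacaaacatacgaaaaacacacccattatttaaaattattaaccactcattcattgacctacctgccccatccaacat

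Members differed in how much of their sequence they shared with the nucleus. For mt-Co2, mt-Co3, mt-Atp6, mt-Nd3 and mt-Nd4l, between 97.6% and 99.9% of all windows of 100 bases were also found in a nuclear transcript. The share was 60.8% for mt-Nd4, 30.8% for mt-Co1 and 3.20% for mt-Nd2. It was 0% for mt-Rnr1, mt-Rnr2, mt-Nd1, mt-Atp8, mt-Nd5, mt-Nd6 and mt-Cytb. With windows of 50 bases it was 62.2% for mt-Nd4, 51.1% for mt-Co1, 8.19% for mt-Nd2, 7.61% for mt-Nd5 and 1.04% for mt-Rnr2. The groups that follow rest on windows of 100 bases, and the read length is not given. Levels per kb (CPM, the count scaled to a library total of equal size, divided by gene length in kb) ran from 8.91 to 76.4 in the 5 genes shared almost throughout, from 167 to 740 in the 3 genes shared in part, and from 34.5 to 1453 in the 7 genes without a shared window. mt-Atp8 was the lowest of those 7. It lies between mt-Co2 and mt-Atp6, and it shares 43 of its 204 bases with mt-Atp6, so reads there belong to both genes. Only annotated transcripts were searched, so copies in unannotated sequence would not be seen. The part of shared sequence in the levels was not tested, and the levels of these 5 genes, and of mt-Nd4 and mt-Co1 in part, are uncertain.

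**Figure D1:**
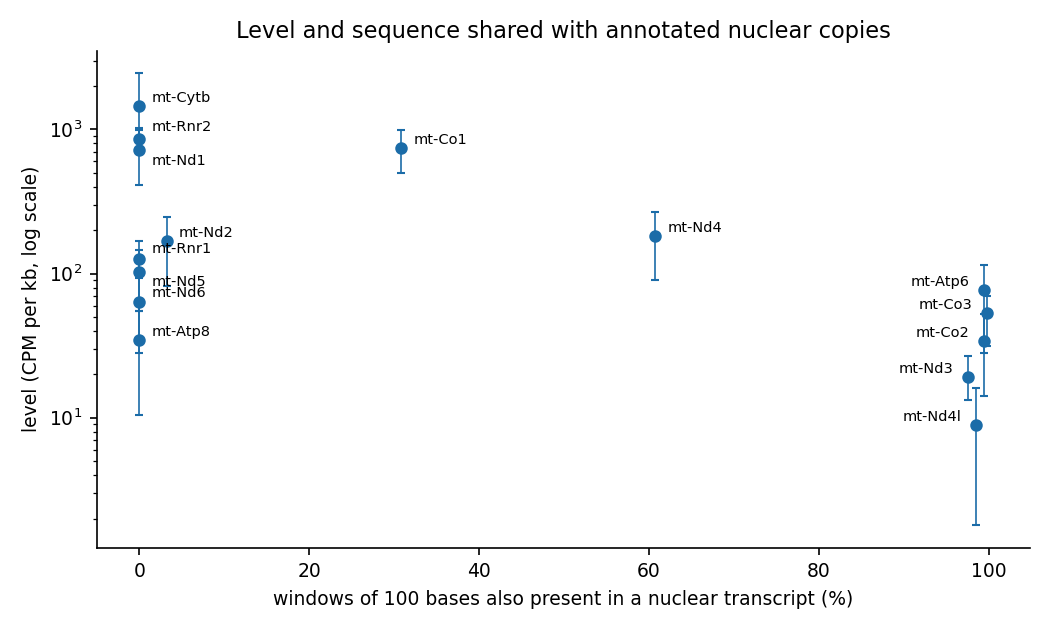
The level of the 15 mitochondrial genes with counts (CPM per kb, log scale, mean of 4 libraries with bars from the lowest to the highest library) is plotted against the share of their windows of 100 bases that also occur in a nuclear transcript. The 5 genes at the right, shared at 97.6% or more, sat at 8.91 to 76.4 CPM per kb, and mt-Cytb, at 0% shared, sat highest at 1453.

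The nuclear copies themselves took counts. In replicates 1 to 4 the 11 copies held 1802, 5752, 6416 and 2880 reads, which equalled 2.16% to 3.78% of the members' own counts. Of the 5 pairs identical over the aligned stretch, 4 had mean ratios of member to copy between 1.04 and 1.93. mt-Co2 had 198, 804, 839 and 241 counts, against 200, 781, 717 and 247 for its copy Gm28661, a ratio of 1.04 ± 0.0888 (SD, n = 4). For mt-Co3 the counts were 511, 1143, 1270 and 772, against 434, 1044, 1043 and 690 for Gm28437, a ratio of 1.15 ± 0.0557. mt-Atp6 had a ratio of 1.45 ± 0.145 to Gm10925. mt-Nd4l, with few counts, had a ratio of 1.93 ± 0.674 to Gm10222. The files do not say from which locus the reads of these pairs came. With its copies added, the level of mt-Co2 was 87.6 CPM per kb, against 34.0 as deposited, that of mt-Co3 100.1 against 53.5, that of mt-Atp6 130 against 76.4 and that of mt-Nd4l 13.6 against 8.91. This sum was chosen after the data were seen.

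In the fifth identical pair, mt-Nd4, of which 63.6% lies in the stretch shared with Gm28439, had 31.0 ± 5.51 times the counts of that copy (SD, n = 4). mt-Nd3 differed from Gm28438 by 1 base and had 11.1 ± 2.31 times its counts. mt-Co1 exceeded Gm13340 by 28.0 ± 6.32 times and Gm29216 by 50.4 ± 8.25 times, and mt-Nd2 and mt-Nd5 exceeded Gm13339 and Gm4076 by 96.5 to 294 times in every library. mt-Co2 also matched Gm13341, at 95.9% identity, and had 1.65 ± 0.179 times its counts.

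**Figure D2:**
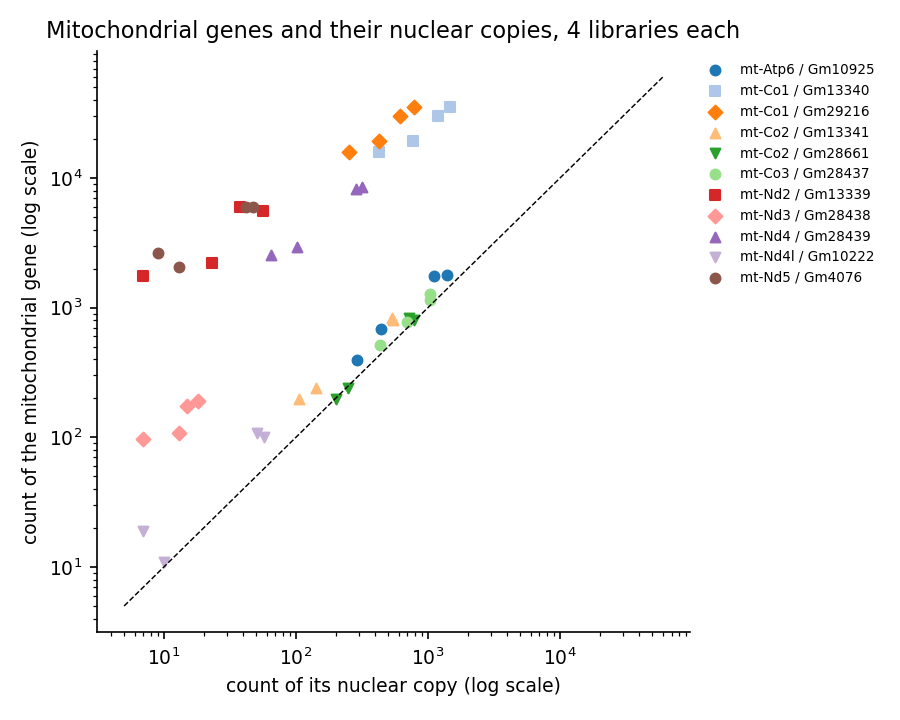
Counts of 9 mitochondrial genes are plotted against counts of their 11 nuclear copies (both axes on a log scale), with 1 point per library and a dashed line where the counts are equal. The identical pairs mt-Co2 with Gm28661 and mt-Co3 with Gm28437 lay close to the line, at mean ratios of 1.04 and 1.15, while mt-Nd5 with Gm4076 lay far above it.

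The transfer RNA genes had no counts at all. All 22 were at 0 in all 4 libraries, which allows each a level of up to 0.129 to 0.147 CPM (3 counts of 20360121 to 23292655 assigned reads). They are 59 to 75 bases long. The shortest, mt-Ts2, and the longest, mt-Tl1, which carry serine and leucine, are shown whole as examples of the length:
mt-Ts2: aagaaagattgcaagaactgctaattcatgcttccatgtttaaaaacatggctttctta
mt-Tl1: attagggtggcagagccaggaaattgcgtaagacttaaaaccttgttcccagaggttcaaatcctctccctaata
The other 15 members had counts in every library. The part of read length, of library construction and of counting rules in the zeros was not tested.

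Together the members took a small share of the counts. The share was 0.405%, 0.675%, 0.761% and 0.454% in replicates 1 to 4, a mean of 0.574% ± 0.171 (SD, n = 4). Protein-coding members accounted for 0.251%, 0.548%, 0.632% and 0.277%, and ribosomal RNA members for 0.155%, 0.126%, 0.129% and 0.177%. The ribosomal RNA share was the steadier, with a fold of 1.40 between its highest and lowest library, against 2.52 for the protein-coding share. Exact Clopper-Pearson intervals at 95% were narrow: for the protein-coding share they ran from 0.249% to 0.253% in replicate 1 and from 0.629% to 0.635% in replicate 3. Such intervals, and the floor given for the transfer RNAs, describe counting error alone. Whether PCR duplicates of a molecule were counted too is not given. In bulk samples, fewer cells of a type and less RNA per cell cannot be told apart.

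The ribosomal RNAs were the steadiest members. mt-Rnr2, the large subunit RNA, stood at 1415, 1164, 1197 and 1609 CPM in replicates 1 to 4. mt-Rnr1, the small subunit RNA, stood at 134, 100.1, 88.9 and 161 CPM. Replicates 1 and 4 were the higher ones for both genes, and the highest library exceeded the lowest by 1.38 times for mt-Rnr2 and by 1.81 times for mt-Rnr1. Per kb, mt-Rnr2 exceeded mt-Rnr1 by 2.78 ± 0.19 on the log2 scale (SD, n = 4).

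Complex I, the NADH dehydrogenase through which electrons enter the chain, has 7 subunits encoded here. mt-Nd1 was the most abundant of them per kb and stood at 394, 952, 901 and 495 CPM in replicates 1 to 4. mt-Nd2 gave 84.8, 245, 255 and 109 CPM. Both were higher in replicates 2 and 3 than in replicates 1 and 4, without overlap. mt-Nd4 did likewise, with 123, 366, 367 and 145 CPM, and so did mt-Nd5, with 128, 267, 258 and 100.7 CPM. These too were higher in replicates 2 and 3 without overlap. mt-Nd4l, which shares 7 bases with mt-Nd4, was the scarcest of the 15 members with counts, at 0.534, 4.78, 4.34 and 0.933 CPM, and its highest library exceeded its lowest by 8.96 times, their widest range. mt-Nd3 was the exception among the 13 protein-coding genes, with 4.71, 7.80, 4.64 and 9.38 CPM, highest in replicate 4 and lowest in replicate 3. With edgeR's TMM scaling it was lowest in replicate 1, at 4.66, against 4.89 in replicate 3.

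mt-Nd6 is the only protein-coding gene on the opposite strand of mitochondrial DNA to the other 12. It gave 27.8, 53.5, 36.7 and 14.7 CPM in replicates 1 to 4, lowest in replicate 4. Because the strand setting of the counting is not given, reads from RNA antisense to mt-Nd6 cannot be told from its own. Its neighbour mt-Nd5 exceeded it by 0.71 ± 0.31 on the log2 scale per kb (SD, n = 4), and mt-Cytb, its neighbour on the other side, by 4.47 ± 0.55.

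mt-Cytb, the subunit of complex III, was the most abundant protein-coding member. It stood at 919, 2078, 2797 and 854 CPM in replicates 1 to 4, so replicates 2 and 3 were each more than 2 times as high as replicates 1 and 4. Among the subunits of complex IV, the oxidase that passes electrons to oxygen, mt-Co1 led with 768, 1334, 1519 and 952 CPM. mt-Co2 gave 9.61, 35.6, 36.0 and 11.8 CPM, and mt-Co3 gave 24.8, 50.6, 54.5 and 37.9 CPM. Per kb, mt-Co1 exceeded mt-Co2 by 4.64 ± 0.59 and mt-Co3 by 3.80 ± 0.13 on the log2 scale (SD, n = 4). Both of the lower genes are among those shared almost throughout with nuclear copies. With copies added, mt-Co1 stood at 783 CPM per kb, against 87.6 for mt-Co2 and 100.1 for mt-Co3. The part of shared sequence in these differences was not tested.

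The ATP synthase subunits mt-Atp6 and mt-Atp8 come from overlapping reading frames. mt-Atp6 stood at 19.1, 78.0, 77.4 and 33.7 CPM in replicates 1 to 4, and mt-Atp8 at 2.14, 11.3, 9.79 and 5.01 CPM. Both were lowest in replicate 1 and, by library total, highest in replicate 2. With TMM scaling mt-Atp6 was slightly higher in replicate 3, at 81.7, than in replicate 2, at 80.8. mt-Atp6 exceeded mt-Atp8 by 1.18 ± 0.18 per kb on the log2 scale (SD, n = 4). All 10 pairs of members compared within libraries, each taken as the log2 ratio of (count + 0.5) per kb, kept 1 order in 4 of 4 libraries. For each of the 10, an exact permutation test (two-sided, flipping signs) gave p = 0.125, adjusted p = 0.125, the smallest value that 4 libraries allow, so no pair could reach 0.05.

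Ranked by mean level per kb, 4 members stood apart at the top. mt-Cytb, mt-Rnr2, mt-Co1 and mt-Nd1 stood at 1453 ± 824, 851 ± 131, 740 ± 223 and 716 ± 295 CPM per kb (SD, n = 4). Neighbours among these 4 overlapped, and mt-Rnr2 was above mt-Cytb in replicates 1 and 4 but below it in replicates 2 and 3. Below mt-Nd1 there was a gap without overlap to mt-Nd4, at 182 ± 97.5 CPM per kb. From there the order was mt-Nd2, mt-Rnr1, mt-Nd5, mt-Atp6, mt-Nd6, mt-Co3, mt-Atp8, mt-Co2, mt-Nd3 and mt-Nd4l, the last at 8.91 ± 7.48 CPM per kb. Each neighbouring pair from mt-Nd4 down had overlapping ranges. Within libraries, mt-Nd4 was above mt-Nd2, mt-Nd5 above mt-Atp6 and mt-Co3 above mt-Atp8 in 4 of 4 libraries. In replicate 4, mt-Nd4 and mt-Nd2 were nearly equal, at 105.1 and 105.0 CPM per kb, so their order there is not settled. With nuclear copies added, however, the mean of mt-Atp6, 130 CPM per kb, was above that of mt-Nd5, 104. The other neighbours from mt-Nd4 down changed order between libraries, so their order is not settled. The 4 most abundant members held 81.9% to 86.2% of the members' counts in every library.

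**Figure D3:**
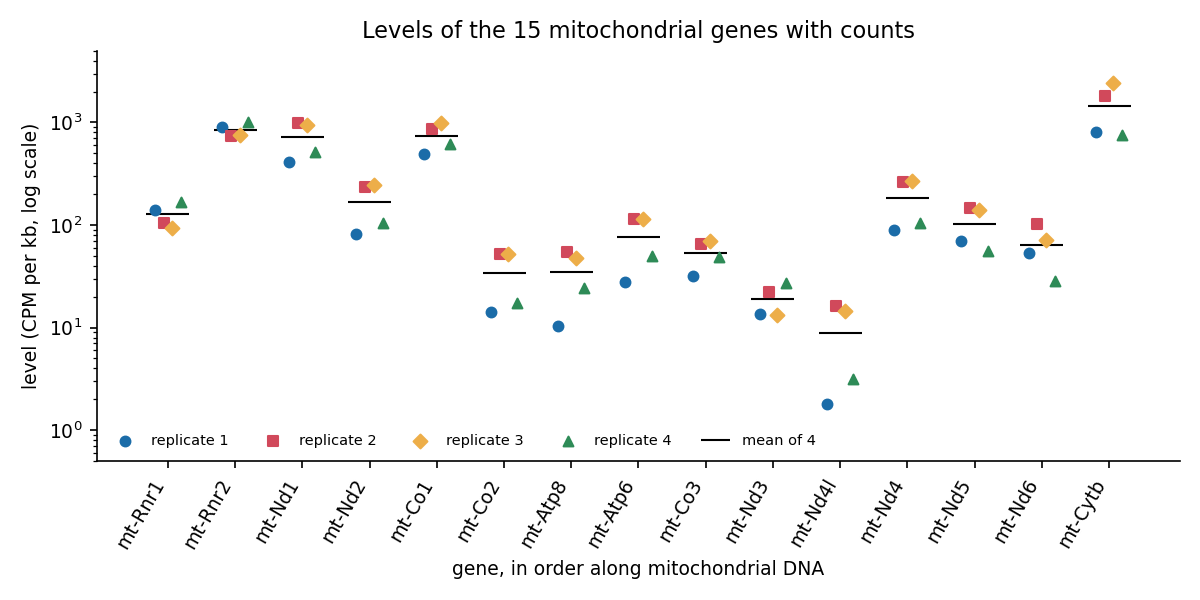
Levels per kb (CPM per kb, log scale) of the 15 mitochondrial genes with counts are shown in their order along mitochondrial DNA, with 1 symbol per library and a line at the mean of 4. Replicates 2 and 3 were the highest 2 libraries for 12 of the 13 protein-coding genes, while replicates 1 and 4 were the highest for both ribosomal RNAs.

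The protein-coding genes and the ribosomal RNAs did not follow each other across libraries. The ratio of protein-coding to ribosomal RNA counts was 1.62, 4.34, 4.91 and 1.56 in replicates 1 to 4, a mean of 3.11 ± 1.77 (SD, n = 4). Replicates 2 and 3 were the highest libraries for 12 of the 13 protein-coding members, against 19.0% of 8388 nuclear genes at 1 CPM or more in every library. With TMM scaling the count was again 12 of 13, against 23.3% of the nuclear genes, and with DESeq2 size factors 12 of 13, against 17.7%. Replicates 1 and 4 were the highest for both ribosomal RNAs under all 3 scalings, as they were for 29.5% of the nuclear genes by library total. The fold between the highest and the lowest library had a median of 3.01 over the 13 protein-coding members, against 2.36 over those nuclear genes. The members were not filtered at 1 CPM, and mt-Nd4l, with the widest fold of 8.96, was below it in replicates 1 and 4.

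Nuclear genes of the respiratory chain had their high libraries elsewhere. The list of 84 nuclear respiratory chain genes took 0.826%, 0.627%, 0.704% and 1.14% of counts in replicates 1 to 4, so the ratio of protein-coding mitochondrial to nuclear respiratory counts was 0.303, 0.875, 0.897 and 0.243. None of the 79 nuclear genes of this list at 1 CPM or more in every library had replicates 2 and 3 as its highest, and 61 (77.2%) had replicates 1 and 4, against 29.5% of the 8388 nuclear genes. With TMM scaling these counts were 1 and 49 of 79, and 24.1% of the nuclear genes had replicates 1 and 4 highest. Atp5b, a catalytic subunit of the ATP synthase, stood at 406, 401, 353 and 735 CPM, Cox4i1, a subunit of complex IV, at 419, 355, 383 and 674 CPM, and Atp5a1 at 356, 341, 314 and 397 CPM. Within libraries, the median level per kb of the 13 protein-coding members differed from that of the nuclear list by 0.15, 1.75, 1.56 and -0.34 on the log2 scale. Its sign was mixed, and the mean of 0.78 ± 1.03 (SD, n = 4) was smaller than the spread.

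**Figure D4:**
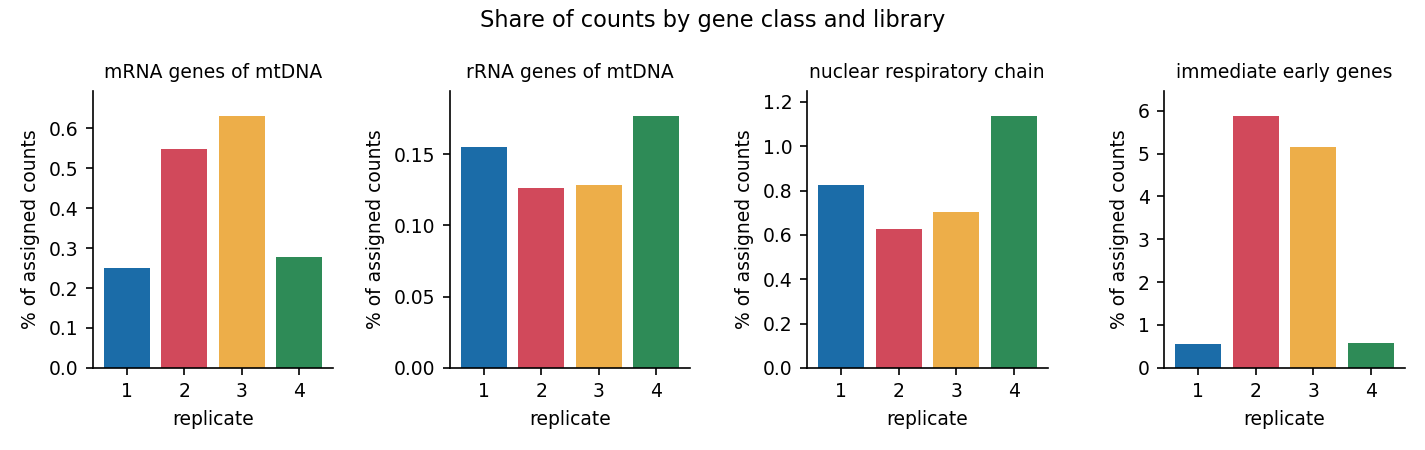
Bars give the percent of assigned counts per library for the 13 protein-coding and 2 ribosomal RNA genes of mitochondrial DNA, 84 nuclear respiratory chain genes and 18 immediate early genes, each panel on its own axis from 0. The protein-coding share was higher in replicates 2 and 3, at 0.548% and 0.632%, than in replicates 1 and 4, at 0.251% and 0.277%, while the nuclear respiratory share was highest in replicate 4, at 1.14%.

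Other features of the libraries differed between replicates 2 and 3 and replicates 1 and 4 as well. The 18 immediate early genes, rapid responders to stimulation such as Fos and Egr1, took 0.549%, 5.88%, 5.15% and 0.579% of counts in replicates 1 to 4. The number of genes with a count was 14850, 18978, 18431 and 13944. All 10 microglial markers were at 1 CPM or more in every library, with summed levels of 63249, 37808, 35449 and 61357 CPM. The 6 oligodendrocyte markers were also all at 1 CPM or more and summed to 484, 1734, 1768 and 545 CPM. Neutrophil markers, 7 of 8 at that level, summed to 1481, 282, 269 and 2377 CPM, and 3 of 5 erythroid markers reached it, with sums of 42.4, 19.9, 17.1 and 76.9 CPM. Oligodendrocyte sums were thus higher, and microglial, neutrophil and erythroid sums lower, in replicates 2 and 3. Astrocyte markers, 5 of 6 at 1 CPM or more in every library, summed to 315, 429, 504 and 240 CPM, and T and NK cell markers, 0 of 4, to 0.0485, 4.65, 5.24 and 0.0491 CPM. Endothelial markers, 3 of 5, summed to 77.3, 133, 135 and 122 CPM. These 3 sums were also higher in replicates 2 and 3, but the astrocyte and endothelial medians were highest in replicate 4. The astrocyte median was 20.1, 28.9, 35.6 and 38.3 CPM, and the endothelial median 13.8, 27.7, 18.8 and 29.1 CPM. Among endothelial markers, Flt1 was higher and Pecam1 lower in replicates 2 and 3. B cell markers, 1 of 4 with Ms4a1 at 0 throughout, were lower there, with sums of 85.7, 19.1, 25.8 and 61.3 CPM. The sum of neuronal markers, 1 of 6, did not separate the libraries this way, at 12.4, 18.4, 38.4 and 21.4 CPM. The neuronal median did, at 0, 1.417, 2.597 and 0.0246 CPM, higher in replicates 2 and 3. Snap25 and Tubb3 were also higher there, while Camk2a was highest in replicate 4, at 21.3 CPM, and lowest in replicate 2, at 6.87. The part of these in the mitochondrial levels was not tested.

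The spread of each gene was tested against genes of similar abundance. The edgeR quasi-likelihood dispersion of a gene over the 4 libraries was set against the trend of all genes by an upper-tail F test with Benjamini-Hochberg adjustment over all 9075 genes that passed the filter on low counts. All 15 members with counts were among them and the 22 transfer RNA genes were not. Of the 15, 4 passed at adjusted p under 0.05, against a background of 8.4% of all genes tested. These calls take the trend as known, a form of the test chosen after the data were seen; with the scatter of genes around the trend in the null, no member and no other gene passed. The 4 were mt-Nd4, at 2.61 above the trend on the log2 scale (adjusted p = 0.00827), mt-Nd4l at 2.52 (adjusted p = 0.0129), mt-Cytb at 2.49 (adjusted p = 0.0145) and mt-Nd2 at 2.39 (adjusted p = 0.0212). At unadjusted p under 0.05 there were 7 of 15 members, against 18.8% of all genes tested. Besides the 4 these were mt-Nd5 at 2.11 (adjusted p = 0.0539), mt-Nd1 at 1.85 (adjusted p = 0.106) and mt-Atp6 at 1.78 (adjusted p = 0.122). mt-Rnr2 lay below the trend, at -2.91, lower than all but 6.62% of genes tested. mt-Nd3, mt-Rnr1 and mt-Co3 lay below it as well, at -1.49, -0.76 and -0.21. With DESeq2 size factors mt-Rnr2 stood at -1.44 and mt-Rnr1 at -0.04. With every gene that had a count tested, mt-Rnr2 stood at -0.95. The median over the 13 protein-coding members was 1.78, against -0.09 over all genes tested.

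None of the 4 calls held under every setting tried. With the scatter around the trend in the null, edgeR called 0 of 15 members and 0 of 9075 genes at adjusted p under 0.05, with 0 members and 395 genes at unadjusted p under 0.05, and DESeq2 marked no gene as a dispersion outlier. With DESeq2 size factors mt-Nd4l alone passed (adjusted p = 0.0456), and with every gene that had a count tested, mt-Cytb alone passed (adjusted p = 0.00790) and mt-Nd4l lay below the trend, at -0.89. With copies added, mt-Atp6 passed (adjusted p = 0.0193) and mt-Nd4l did not (adjusted p = 0.0588). Leaving out replicate 1 ended all 4 calls and left mt-Nd5 (adjusted p = 0.0492). Leaving out replicate 2 ended those of mt-Nd4 and mt-Nd2, and leaving out replicate 3 those of mt-Nd4, mt-Cytb and mt-Nd2. Leaving out replicate 4 ended those of mt-Cytb and mt-Nd4l, and there mt-Atp6 passed the edgeR test, at 3.20 (adjusted p = 0.00606). Some ratios behind the lost calls were close to those of all 4 libraries: mt-Nd4 stood at 2.55 and mt-Nd2 at 2.35 without replicate 2, and mt-Cytb at 2.48 without replicate 4. Others were smaller, such as mt-Cytb at 1.83 without replicate 3 and mt-Nd4l at 1.88 without replicate 1.

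**Figure D5:**
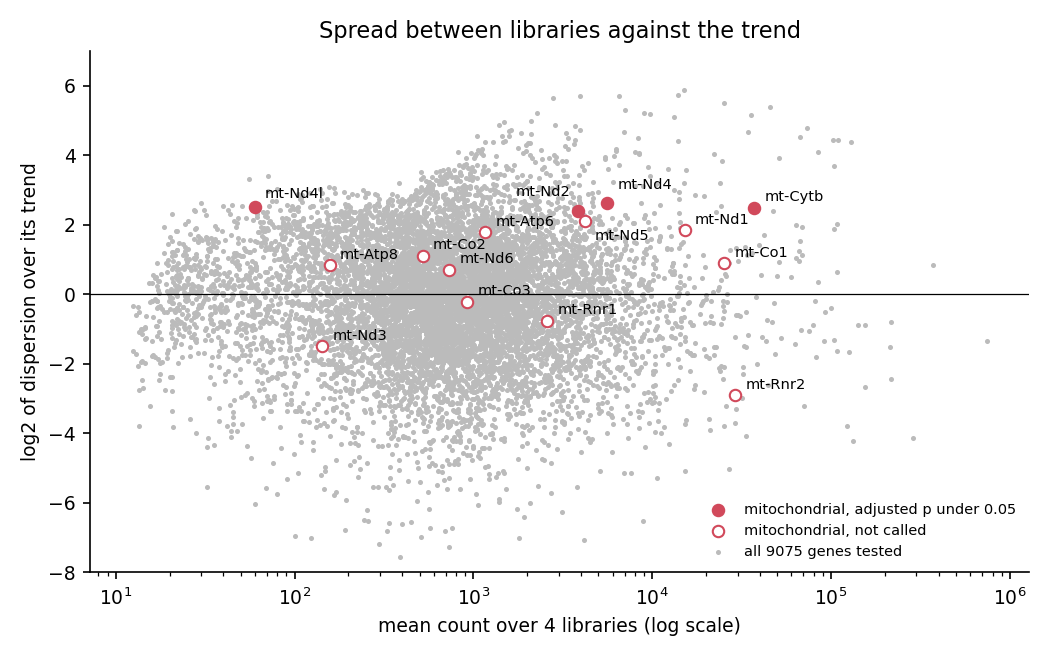
The log2 ratio of each gene's dispersion to the trend is plotted against its mean count (log scale) for 9075 genes in grey and 15 mitochondrial genes in red, filled where adjusted p was under 0.05. mt-Nd4, mt-Nd4l, mt-Cytb and mt-Nd2 were filled, at 2.39 to 2.61, and mt-Rnr2 lay lowest at -2.91.

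Nuclear genes that handle mitochondrial DNA and RNA were put to the same test, which 8.4% of all genes passed. The first 3 lists are too short for a count of 0 to be read against that share. Among 10 genes of mitochondrial transcription, 7 were tested and edgeR passed 0, with 1 at unadjusted p under 0.05. DESeq2 marked none of any list. Tfam, which packages mitochondrial DNA and starts its transcription, stood at 20.1, 23.3, 14.7 and 24.1 CPM in replicates 1 to 4, and Tefm, the elongation factor, at 52.3, 14.0, 19.2 and 26.8 CPM. Among 20 genes of RNA processing and decay, 15 were tested and 0 passed, with 3 at unadjusted p under 0.05. Lrpprc, which stabilises mitochondrial messenger RNA, gave 69.2, 49.3, 66.6 and 25.7 CPM, lowest in replicate 4, and Hsd17b10, a subunit of the enzyme that cuts transfer RNAs from the precursors, gave 58.2, 32.9, 57.6 and 81.4 CPM. Among 10 replication genes, 8 were tested and 0 passed, also unadjusted, with Ssbp1, the single-stranded DNA binding protein, at 44.9, 54.1, 59.8 and 117 CPM.

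The share of all genes passing, 8.4%, is also the background for the lists that follow. Of 86 translation genes, mostly of the mitochondrial ribosome, 83 were tested and 1 passed. This was Mrpl37, a large subunit protein, at 65.0, 34.0, 78.7 and 183 CPM in replicates 1 to 4 (adjusted p = 0.0419). Of 84 nuclear respiratory chain genes, 79 were tested and 1 passed, Ndufv2 of complex I, at 115, 68.7, 62.0 and 251 CPM (adjusted p = 0.0358). Both were highest in replicate 4. Of 8 regulators of mitochondrial biogenesis, 4 were tested and 2 passed: Gabpa, a transcription factor subunit, at 79.97, 60.1, 44.5 and 0.639 CPM (adjusted p = 9.75e-08), and the coactivator-related gene Pprc1, at 14.2, 26.5, 14.3 and 0.982 CPM (adjusted p = 0.0450). Both were lowest in replicate 4. With 4 genes tested, the list of regulators is also too short for its count to be read against 8.4%. Of the 18 immediate early genes, 17 were tested and 17 passed. This list was chosen with earlier results of these data known, so that count is not independent of them. Median dispersions relative to the trend were -0.48 for the translation list and -0.37 for the nuclear respiratory list on the log2 scale, against 1.78 for the protein-coding members of mitochondrial DNA.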

How the data were processed

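RNA was measured by RNA-seq (a low-input NEBNext kit, per the labels' protocols) in 4 libraries of 1 group. The deposited values are raw read counts per gene; per the submitters' processing notes, STAR 2.7.10a, SAMtools 1.16.1, HTSeq 0.11.2 and GRCm39 were used. Annotation, strand setting, read length and filters: not given in the sources used here. The 5 closing rows that name no gene held 20.8% ± 1.28 of listed reads (SD, n = 4) and were left out. Assigned counts were 20360121 to 23292655 per library. All pairs of libraries differed by far more than sampling noise, so none was counted as a duplicate. Chi-square per degree of freedom was 47.8 between replicates 2 and 3 and from 224 (replicates 1 and 4) to 377 (replicates 2 and 4) for the other pairs.

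CPM used assigned counts as total. Lengths and sequences came from GENCODE M21 (GRCm38), whose symbols matched 89.1% of rows and all 37 members; because the builds differ, no coordinates are given. Copies were sought with BLAST+ 2.17.0. Variability was tested in edgeR 4.0.16 (intercept only, TMM, filterByExpr with a minimum count of 10) by an upper-tail F test of each gene's quasi-likelihood dispersion over the trend, taken as known, with Benjamini-Hochberg adjustment. That form was chosen after edgeR's prior degrees of freedom in the null gave no calls. Its p-values hold only against a trend without error: 1708 of 9075 genes had an unadjusted p under 0.05, against 395 with the scatter in the null. The test was run on simulated data. DESeq2 1.42.0 served as an alternative. Of each nuclear list, genes past the test and some of the 3 of highest mean CPM are named. Members and lists were chosen with earlier results of these data known.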

Additional observations from a re-analysis of the deposited data

Results flagged for a closer look

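Dixon's criterion at 95% was applied to 39 sets of 4 values and marked 2, where chance marks about 1 in 20. Both were ratios of a member to its nuclear copy in which replicate 1 stood above the other libraries. The count of mt-Co1 over that of Gm13340 was 37.4 in replicate 1, against 25.1, 24.1 and 25.2 in replicates 2 to 4. The count of mt-Nd4 over that of Gm28439 was 39.1 in replicate 1, against 28.9, 26.9 and 28.9 in replicates 2 to 4. The cause was not tested.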

How the results depend on the processing

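The number of members past the variability test was 4, and 762 genes passed in all. It was 1 with DESeq2 size factors, where 536 genes (5.91%) passed, 1 with every gene that had a count, where 1196 (5.52%) passed, 0 of 0 genes with the scatter around the trend in the null (added after the data were seen), and 0 of 0 by DESeq2's dispersion outliers. Leaving out 1 replicate at a time gave 1 to 3 members and 326 to 985 genes. Nuclear totals (4 of 765) and counts with copies added (4 of 766) changed the number little. The side of the trend changed in 6 cases: with every gene that had a count, mt-Nd4l to -0.89 and mt-Atp8 to -1.09; with copies added, mt-Co3 to 0.57; and with 1 replicate left out, mt-Atp8 (-0.39 without replicate 1, up to 1.33), mt-Nd6 (-0.26 without replicate 2, up to 1.504) and mt-Co3 (1.37 without replicate 4, down to -1.09). The cause was not tested. Without length correction the members' median against the nuclear respiratory list was -0.56 ± 1.04, against 0.78 ± 1.03 with it (SD, n = 4). At 99% identity 7 nuclear copies were left of 11. Over all alternatives, 38 values or counts that answer a comparison stayed and 15 moved; of those for single genes or pairs, 175 kept sign and call, 21 lost a call, 3 gained one and 6 changed sign. No paired analysis was possible because there is only 1 group.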

Other observations

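The make-up of the members' own counts differed between libraries. mt-Co1 held a steady 19.9% ± 0.836 of them (SD, n = 4). mt-Cytb held 22.7%, 30.8%, 36.8% and 18.8% in replicates 1 to 4, and mt-Rnr2 held 34.9%, 17.3%, 15.7% and 35.4%. mt-Rnr2 was the largest member in replicates 1 and 4, and mt-Cytb in replicates 2 and 3.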
